A study of Mus musculus with 8 samples.

Results

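The genes described here are 8 dual-specificity phosphatases that act on mitogen-activated protein kinases (MAPKs): Dusp1, Dusp2, Dusp3, Dusp4, Dusp5, Dusp6, Dusp10 and Dusp16. They were taken by symbol from a table of 55801 genes. Each symbol occurred once, and all 8 genes were among the 12189 with a mean of at least 1 TPM, the genes that were tested. TPM is a transcript level divided by gene length and scaled to 1 total in every sample. RNA was sequenced from peritoneal macrophages of male C57BL/6 mice aged 6 to 8 weeks, collected by lavage 72 h after an injection of thioglycollate, an irritant that draws these cells into the abdominal cavity. The 4 groups had 2 samples each: vehicle (DMSO, named NC), LPS at 100 ng/ml for 4 h, the small molecule C498 at 15 µM, and C498 given 0.5 h before LPS (C498+LPS). LPS is the outer membrane lipid of Gram-negative bacteria that macrophages sense through TLR4. Whether the cells of several mice were pooled, and whether the 2 samples of a group came from separate mice, is not given in the sources used here, so the p-values measure the spread between these samples, which may be technical.

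MAPKs such as ERK, JNK and p38 are switched on when a kinase adds phosphate to a threonine and a tyrosine in their activation loop, and dual-specificity phosphatases switch them off by removing both. In macrophages the route from TLR4 to cytokine genes runs in part through these kinases, and several of the phosphatases are themselves induced by MAPK signaling, which makes them feedback inhibitors. They differ in place and target: Dusp1, Dusp2, Dusp4 and Dusp5 are inducible nuclear enzymes, Dusp6 is a cytoplasmic enzyme that prefers ERK, Dusp10 and Dusp16 act mainly on JNK and p38, and Dusp3 is a small enzyme that lacks the kinase-binding part of the others. In the protein domain column of the deposited table, all 8 carry the dual-specificity catalytic domain and 7 of 8, all but Dusp3, also carry a rhodanese-like domain.

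C498 went with the largest differences in this family. In C498 vs NC, 5 of 8 genes rose (Dusp1, Dusp2, Dusp4, Dusp5 and Dusp10) and 0 fell, where 5.64% of all tested genes rose and 1.36% fell. With LPS present, in C498+LPS vs LPS, 3 of 8 rose (Dusp1, Dusp5 and Dusp10) and 0 fell, beside 5.39% and 2.18% of all tested genes. LPS alone raised 2 of 8, Dusp16 and Dusp4, and lowered 0, beside 5.55% and 6.68% of all tested genes. The last of these, C498+LPS vs C498, had 1 of 8 lower, Dusp1, and 0 higher, beside 3.13% and 2.52%. At an unadjusted p under 0.05, the genes that were lower numbered 1 in C498 vs NC, 0 in C498+LPS vs LPS and 2 in LPS vs NC, and 1 was higher in C498+LPS vs C498. Here a gene rose or fell when its fold change was at least 2 on the log2(TPM + 1) scale and its adjusted p, by limma over all 12189 tested genes, was at most 0.05. Changes below are log2 differences on that scale with their standard error (SE), and levels are TPM, which are set per gene length, as means ± SD of 2 samples.

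Replicates correlated at r = 0.962 (NC) to 0.981 (LPS) over the tested genes. Both the number of genes above 0 and the mitochondrial share of the TPM were higher in all 4 samples given C498 than in the 4 without it. Genes above 0 numbered 18474 to 18975 with C498 and 17528 to 18046 without it, and mitochondrial genes took 3.01% to 4.60% with C498, the highest share being in C498+LPS replicate 2, a sample that also stood apart in cell type markers given further on, and 1.80% to 2.39% without it. The part of these measures in the C498 differences below was not tested. Values in TPM keep no read counts, so the depth behind them is unknown. The median of all tested genes lay at -0.17 for LPS vs NC and at -0.18 for C498+LPS vs C498, and centring each sample on its median gene moved it to -0.00054 and 0.038, while in C498 vs NC it moved from 0.014 to -0.11. The share of called genes that were higher moved with it, from 45.4% to 61.7% in LPS vs NC, from 44.6% to 68.9% in C498+LPS vs C498 and from 80.5% to 67.8% in C498 vs NC. Centred values are therefore given beside the phosphatase genes called with LPS, and centred counts beside list counts that they move. The cytokine genes Tnf, Il6 and Il1b, used to check the LPS labels, rose by 5.40, 7.77 and 6.47 in LPS vs NC and also rose in C498+LPS vs C498. With C498 alone they rose by 1.13, 2.02 and 1.01, where 5.64% of all tested genes rose, or 2 of 3 with centring. All 3 were called lower in the LPS response with C498 against that without it, beside 0.394% of all tested genes. Their values in C498+LPS vs LPS were -0.57, -0.34 and -0.35. By limma 0 of 3 were called, where 2.18% of all tested genes fell, with 2 lower at an unadjusted p under 0.05. Of these genes, Tnf passed the p threshold (limma adjusted p = 0.00961) and missed only the 2-fold change. Il6 and Il1b did not pass it (limma adjusted p = 0.186 and 0.128).

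**Figure D1:**
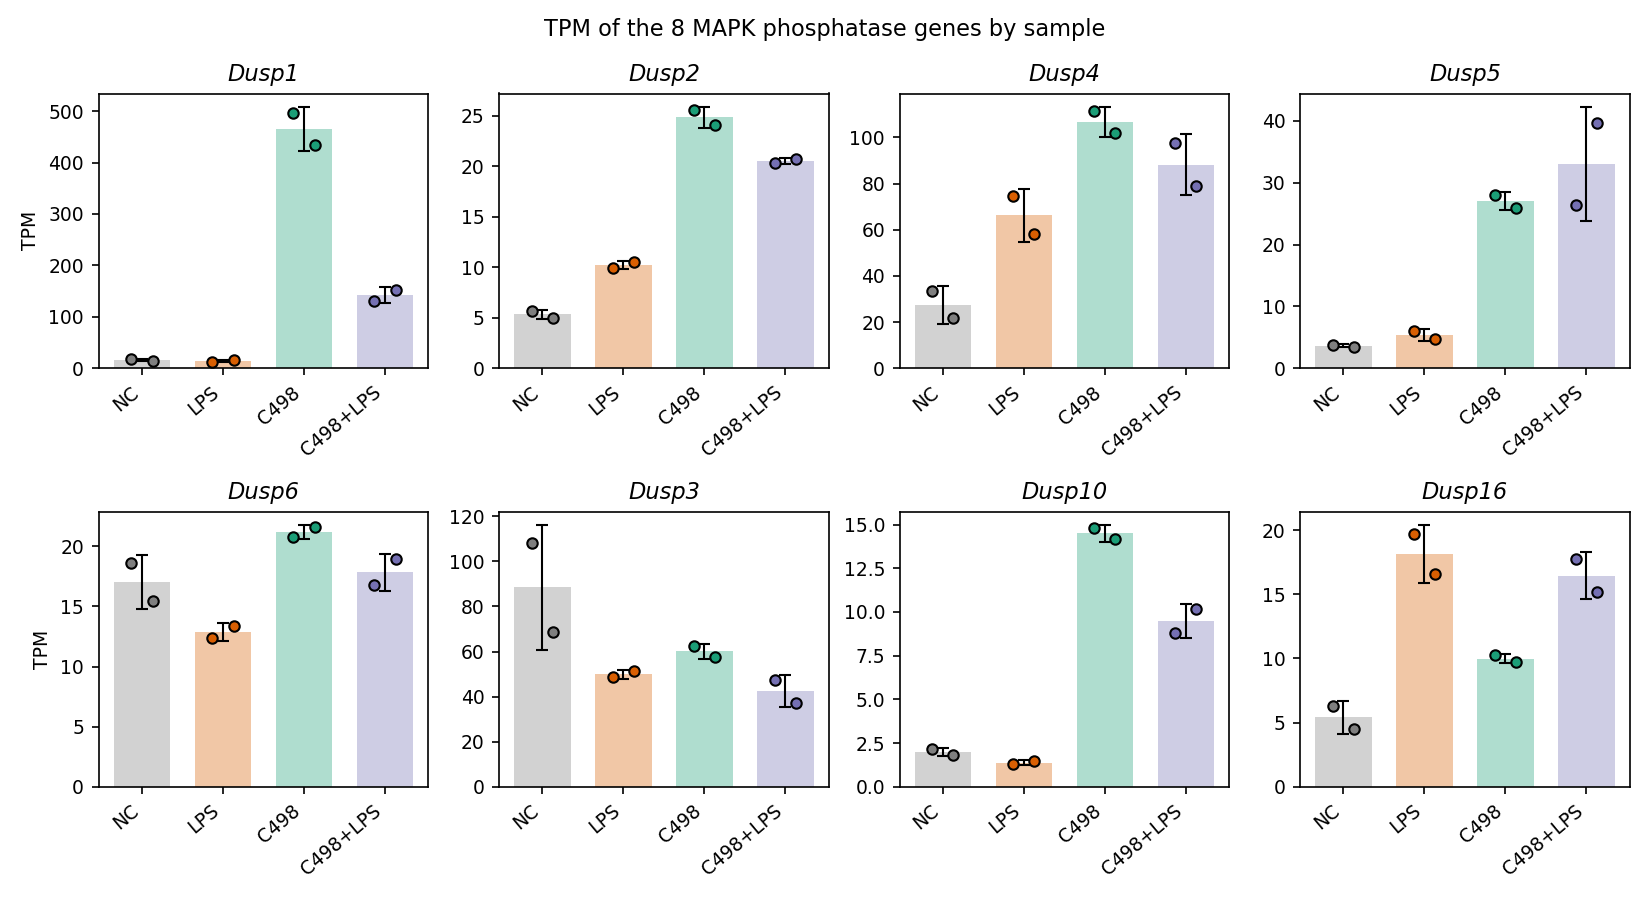
TPM level of each of the 8 phosphatase genes (vertical axis, linear, its own scale in each panel) in the 4 groups. Points are the 2 samples of a group, bars their mean and error bars 1 SD. Dusp1 reaches 496 and 435 TPM with C498 alone, while the mean of Dusp16 is highest with LPS alone.

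Dusp1 encodes the classic inducible nuclear phosphatase, which dampens p38 and JNK and is a brake on TLR4-driven cytokine production. Its level was 17.0 and 14.7 TPM in NC, 12.8 and 15.3 TPM with LPS, 496 and 435 TPM with C498, and 131 and 153 TPM with C498+LPS. All 4 samples given C498 were above all 4 without it, the samples given C498 alone were the highest, and NC and LPS overlapped. The means were 15.8 ± 1.65, 14.0 ± 1.73, 465 ± 43.5 and 142 ± 15.0 TPM, so that C498 alone stood at 29.4 times NC and C498+LPS at 10.1 times LPS. Dusp1 rose by 4.79 (SE 0.140, limma adjusted p = 1.08e-05) in C498 vs NC, where it ranked 4 among all tested genes by the size of the increase. The rise in C498+LPS vs LPS was 3.25 (SE 0.140, limma adjusted p = 8.19e-05). LPS alone gave no detectable difference at 4 h, -0.16 with a 95% interval of -0.49 to 0.17 (limma adjusted p = 0.427), a value that becomes 0.0059 after centring. On top of C498, LPS lowered Dusp1: the change was -1.71 (SE 0.140, limma adjusted p = 0.000520) and -1.49 after centring, or 3.28 times lower in mean TPM. The LPS response with C498 minus that without it was -1.54 (SE 0.198, limma adjusted p = 0.0310), where 0.394% of all tested genes were called lower and 0.0738% higher. This difference had a similar size but lost its call with median centring (-1.50, limma adjusted p = 0.0523), with no filter on low values or no variance trend (limma adjusted p = 0.0878 and 0.0920), and when any sample except NC replicate 1 was left out (limma adjusted p 0.0772 to 0.198).

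The Dusp1 gene spans chr17:26505590-26562128 on the minus strand (GRCm38, GENCODE M21). Ergic1, on the opposite strand, overlaps it and lay at 40.2 to 72.8 TPM, highest in NC. Whether the counting used strand is not given in the sources used here, so reads of the overlap could be assigned to either gene. The promoters of 4 of the 5 genes that C498 raised, all but Dusp4, are shown to let their starts be compared, each as the 250 bases before the RefSeq transcript start on GRCm38.p6, read 5′ to 3′ on the gene's strand. The Dusp1 and Dusp10 windows lie within the GENCODE spans of their genes, and that of Dusp5 overlaps its span. These starts are therefore not the outermost of the gene. Capitals mark matches, on either strand, to the cAMP response element TGACGTCA, its shorter form TGACG, or the CArG box bound by SRF.
Dusp1, chr17:26508473-26508722, minus strand: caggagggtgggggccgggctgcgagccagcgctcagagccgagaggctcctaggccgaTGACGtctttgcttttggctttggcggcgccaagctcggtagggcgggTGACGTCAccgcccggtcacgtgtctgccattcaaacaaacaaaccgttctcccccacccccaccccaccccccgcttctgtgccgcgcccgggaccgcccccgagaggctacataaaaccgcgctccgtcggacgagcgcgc
Dusp2, chr2:127335909-127336158, plus strand: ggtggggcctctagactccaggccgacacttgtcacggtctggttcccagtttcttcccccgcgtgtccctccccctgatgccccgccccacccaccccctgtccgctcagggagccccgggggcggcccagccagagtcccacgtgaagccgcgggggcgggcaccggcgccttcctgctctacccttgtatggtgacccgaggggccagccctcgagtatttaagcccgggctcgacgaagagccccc
Dusp5, chr19:53528895-53529144, plus strand: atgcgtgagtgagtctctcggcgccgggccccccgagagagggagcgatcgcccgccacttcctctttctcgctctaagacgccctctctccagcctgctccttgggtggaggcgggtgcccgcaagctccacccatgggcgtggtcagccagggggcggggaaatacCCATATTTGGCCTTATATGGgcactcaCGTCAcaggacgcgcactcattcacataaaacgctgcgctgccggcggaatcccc
Dusp10, chr1:184034131-184034380, plus strand: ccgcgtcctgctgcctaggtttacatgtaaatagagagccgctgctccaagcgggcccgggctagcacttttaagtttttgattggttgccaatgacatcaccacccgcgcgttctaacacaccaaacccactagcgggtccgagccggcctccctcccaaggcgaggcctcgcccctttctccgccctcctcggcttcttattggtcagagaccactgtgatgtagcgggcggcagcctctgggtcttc

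The Dusp1 promoter held a full TGACGTCA from base -143 to -136, counted back from the base before the start, and 1 more TGACG from -191 to -187. Of 32851 promoters of this length, 1.55% held TGACGTCA and 17.8% held TGACG, which also counts the longer element. Dusp1 was the only 1 of 7 members with a promoter sequence to hold the full element, and 3 of 7 held TGACG: Dusp1, Dusp5 (-55 to -51) and Dusp16 (-70 to -66). Dusp5 held 2 CArG boxes side by side, at -82 to -73 and -72 to -63, which 1.47% of promoters held at least once. The AP-1 site TGACTCA, the NF-kB site and TATAAA were found in 0 of 7, where 4.46%, 7.25% and 12.4% of all promoters held them. These are matches of letters in a short window and say nothing of binding. Capitals are absent from Dusp2 and Dusp10, whose windows held none of the searched motifs.

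Dusp2 encodes a nuclear phosphatase found mainly in activated immune cells. It lay at 5.63 and 5.02 TPM in NC, 9.97 and 10.5 TPM with LPS, 25.6 and 24.1 TPM with C498, and 20.3 and 20.8 TPM with C498+LPS. No 2 groups overlapped, with NC lowest, then LPS, then C498+LPS and C498 alone. The mean rose from 5.33 ± 0.431 to 24.9 ± 1.07 TPM in C498 vs NC, 4.67-fold in TPM and 2.03 on the log2 scale (SE 0.130, limma adjusted p = 0.000227). Its difference was 0.94 in C498+LPS vs LPS (SE 0.130, limma adjusted p = 0.00411) and 0.83 in LPS vs NC (SE 0.130, limma adjusted p = 0.00370), both past the p threshold and under a 2-fold change on the log2 scale. In mean TPM they were 2.01-fold and 1.92-fold. The first passes at 1.00 with a pseudocount of 0.1, and the second at 1.02 with quantile normalization. The Dusp2 gene lies at chr2:127336159-127338376 on the plus strand.

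Dusp4 encodes a nuclear phosphatase close to Dusp1 in sequence that is induced by ERK signaling. Its levels were 33.3 and 21.7 TPM in NC, 74.5 and 58.2 TPM with LPS, 111 and 102 TPM with C498, and 97.6 and 78.9 TPM with C498+LPS. NC was below every other group, LPS was below both groups given C498, and C498+LPS was below C498 alone, without overlap. Dusp4 was raised by both agents given alone: by 1.26 with LPS (SE 0.219, limma adjusted p = 0.00557) and by 1.95 with C498 (SE 0.219, limma adjusted p = 0.00214). The LPS value is 1.43 after centring, and its call is lost without NC replicate 2 (0.96) or LPS replicate 1 (limma adjusted p = 0.0512) and when the fit holds NC and LPS alone (limma adjusted p = 0.0510). Between C498+LPS and LPS the difference was 0.41, with a 95% interval of -0.11 to 0.92 (limma adjusted p = 0.256), at a mean of 88.2 ± 13.2 beside 66.3 ± 11.5 TPM. For Dusp4 the LPS response with C498 minus that without it was -1.54 (SE 0.309, limma adjusted p = 0.113), the same size as that of Dusp1 but past the threshold only with centring (limma adjusted p = 0.0487) or with the replicate number as a block (limma adjusted p = 0.0186). Dusp4 lies at chr8:34807297-34819894 on the plus strand.

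Dusp5 encodes a nuclear phosphatase with ERK as its substrate, and its gene, at chr19:53529109-53542431 on the plus strand, carries the paired CArG boxes shown above. It lay at 3.79 and 3.47 TPM in NC, 6.05 and 4.73 TPM with LPS, 28.0 and 26.0 TPM with C498, and 26.5 and 39.6 TPM with C498+LPS. Every sample given C498 was above every sample without it, and C498 and C498+LPS overlapped. Dusp5 rose by 2.60 (SE 0.213, limma adjusted p = 0.000576) in C498 vs NC and by 2.39 (SE 0.213, limma adjusted p = 0.000985) in C498+LPS vs LPS, 7.44-fold and 6.13-fold in mean TPM. The LPS response with C498 minus that without it was -0.20, with a 95% interval of -0.91 to 0.50. In LPS vs NC the difference was 0.46, with an interval of -0.042 to 0.96 (limma adjusted p = 0.151).

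Dusp10 encodes a phosphatase selective for JNK and p38 that works in both nucleus and cytoplasm, at chr1:184013302-184075636 on the plus strand. It was the lowest of the family without C498, at 2.16 and 1.84 TPM in NC and 1.29 and 1.47 TPM with LPS. With C498 it stood at 14.8 and 14.2 TPM, and with C498+LPS at 8.80 and 10.2 TPM. The 4 groups did not overlap, and both C498 groups were above both others. Dusp10 rose by 2.37 (SE 0.175, limma adjusted p = 0.000353) in C498 vs NC and by 2.14 (SE 0.175, limma adjusted p = 0.000793) in C498+LPS vs LPS, 7.25-fold and 6.87-fold in mean TPM. Its difference of -0.57 in C498+LPS vs C498 did not pass (limma adjusted p = 0.0690).

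Dusp16, the other phosphatase directed at JNK and p38, at chr6:134715468-134792625 on the minus strand, had a different order of groups. Its levels were 6.31 and 4.50 TPM in NC, 19.7 and 16.5 TPM with LPS, 10.2 and 9.75 TPM with C498, and 17.7 and 15.2 TPM with C498+LPS. Both groups given LPS overlapped each other and were above C498 alone, which was above NC. LPS raised Dusp16 by 1.59 (SE 0.187, limma adjusted p = 0.00117), 1.76 after centring, from a mean of 5.41 ± 1.28 to 18.1 ± 2.26 TPM. C498 vs NC gave 0.79, with a 95% interval of 0.35 to 1.23 (limma adjusted p = 0.0315), under a 2-fold change, and C498+LPS vs LPS gave -0.13, with an interval of -0.57 to 0.31 (limma adjusted p = 0.696). Within C498-treated cells the difference with LPS was 0.66 (limma adjusted p = 0.0533), or 0.88 after centring.

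Dusp6, the cytoplasmic ERK phosphatase at chr10:99263231-99267489 on the plus strand, passed the test in none of the 6 comparisons. It lay at 18.6 and 15.4 TPM in NC, 12.4 and 13.4 TPM with LPS, 20.8 and 21.6 TPM with C498, and 16.8 and 18.9 TPM with C498+LPS. The C498 samples were the highest, the LPS samples the lowest, and NC and C498+LPS overlapped. Its differences were 0.31 in C498 vs NC (95% interval -0.028 to 0.64, limma adjusted p = 0.188), 0.44 in C498+LPS vs LPS (0.10 to 0.77, limma adjusted p = 0.0802) and -0.37 in LPS vs NC (-0.71 to -0.037, limma adjusted p = 0.0907).

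Dusp3, the small phosphatase that acts on ERK and JNK, at chr11:101971143-101987013 on the minus strand, was the most abundant of the family in NC. It lay at 108 and 68.9 TPM in NC, 48.5 and 51.2 TPM with LPS, 62.4 and 57.7 TPM with C498, and 47.3 and 37.3 TPM with C498+LPS. NC was above every other group, with its 2 samples far apart, and C498+LPS was the lowest. Dusp3 fell by 1.02 in C498+LPS vs NC (SE 0.212, limma adjusted p = 0.00813), where 9.06% of all tested genes fell. That call is lost with centring (-0.93), with quantile normalization (-0.94), in a fit of these groups alone (limma adjusted p = 0.0546), and without NC replicate 1 (-0.70) or C498+LPS replicate 2 (-0.85). In LPS vs NC the difference was -0.78 (SE 0.212, limma adjusted p = 0.0306) and in C498 vs NC -0.52 (SE 0.212, limma adjusted p = 0.144), neither reaching a 2-fold change. The LPS difference becomes -1.10 and passes without NC replicate 2, and becomes -0.46 (limma adjusted p = 0.0760) without NC replicate 1. The antisense gene Gm20659 overlaps Dusp3 and lay at 2.19 to 17.5 TPM.

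**Figure D2:**
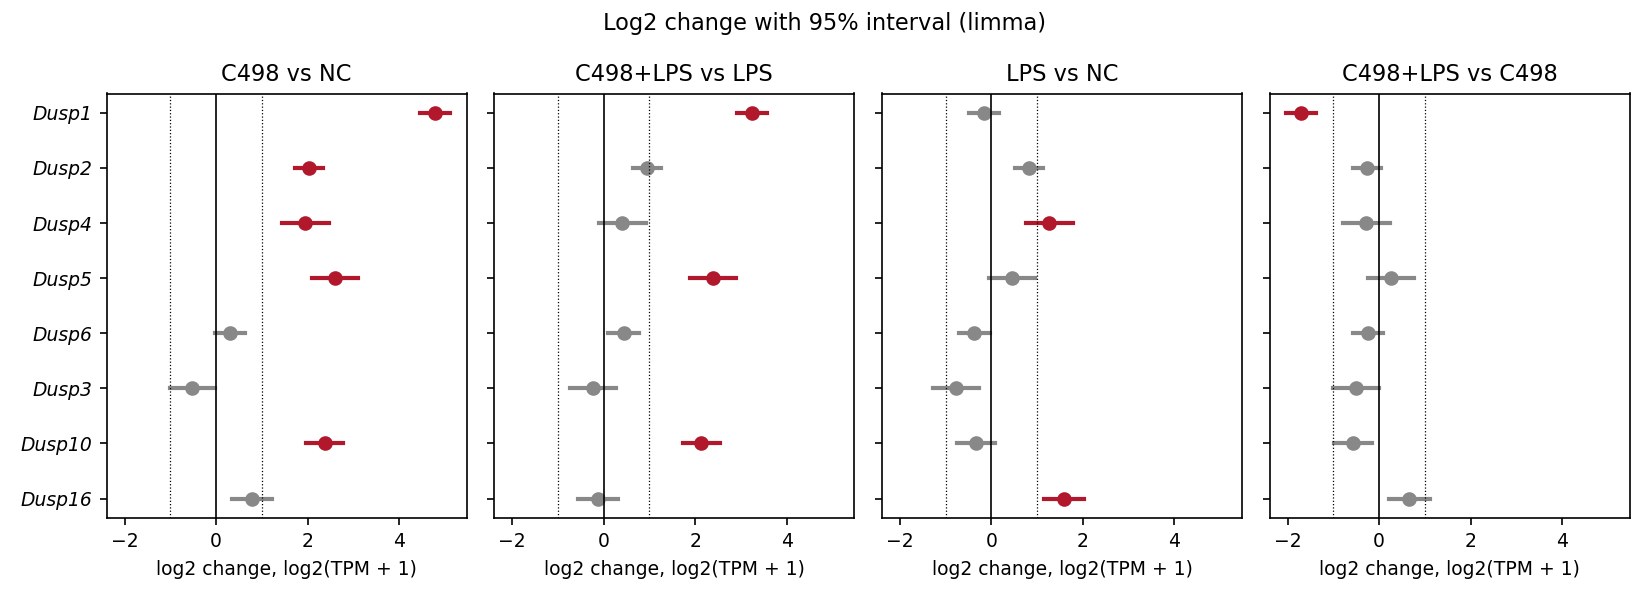
Log2 change of each gene (points, horizontal axis, on log2(TPM + 1)) with its 95% interval (lines) in 4 comparisons, from limma over all 8 samples. Dotted lines mark a 2-fold change and red points passed both thresholds. Dusp1, Dusp5 and Dusp10 passed as higher in both comparisons of cells with and without C498, and Dusp4 and Dusp16 in LPS vs NC.

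Set against NC, the cells given both agents had 6 of 8 genes higher (Dusp1, Dusp2, Dusp4, Dusp5, Dusp10 and Dusp16) and 1 lower (Dusp3), beside 9.15% and 9.06% of all tested genes. The largest ratios of mean TPM were 9.10 for Dusp5, 8.98 for Dusp1 and 4.74 for Dusp10. The median log2 change over the 8 genes was 1.99 in C498 vs NC, 0.69 in C498+LPS vs LPS, -0.27 in C498+LPS vs C498 and 0.15 in LPS vs NC, beside medians over all tested genes of 0.014, 0.0065, -0.18 and -0.17. Dusp2 and Dusp4 passed with C498 alone against NC but did not pass for C498+LPS vs LPS, and the test of that difference did not pass for either (limma adjusted p = 0.0698 and 0.113). Comparisons that share a group share its samples, so these counts are not independent of each other.

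Counted by samples alone, with no fold threshold, both C498 samples were above both NC samples for 7 of 8 genes and below them for Dusp3, where 29.3% of all tested genes were above and 28.4% below without overlap. C498+LPS was above LPS for 6 genes and below for 1, Dusp3, beside 31.9% and 30.9%, and Dusp16 overlapped. LPS was above NC for 4 genes (Dusp2, Dusp4, Dusp5 and Dusp16) and below for 3 (Dusp3, Dusp6 and Dusp10), beside 19.3% and 42.2%. C498+LPS was above C498 for Dusp16 and below for 6, beside 17.4% and 48.8%, and Dusp5 overlapped. Against NC, C498+LPS was above for 6 and below for 1, beside 25.9% and 42.3%.

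Added up, the 8 genes took 195 and 135 TPM in the NC samples, 185 and 171 TPM with LPS, 769 and 690 TPM with C498, and 366 and 373 TPM with C498+LPS. NC and LPS overlapped, and every C498 sample was above both. Dusp1 made up 9.77% of the sum on average in NC, 7.91% with LPS, 63.7% with C498 and 38.4% with C498+LPS. Without Dusp1 the mean sum was 149 ± 40.3, 164 ± 11.6, 264 ± 12.8 and 228 ± 10.0 TPM. In NC the order of levels was led by Dusp3, with 53.1% of the sum, followed by Dusp4, while the neighbours Dusp6 and Dusp1, and Dusp16 and Dusp2, overlapped between their samples. With LPS, Dusp4 led at 37.1% of the sum ahead of Dusp3, and Dusp1 and Dusp6 overlapped. Both groups given C498 were led by Dusp1 and then Dusp4 and Dusp3. No neighbours overlapped with C498 alone, and with C498+LPS those that did were Dusp3 and Dusp5, and Dusp6 and Dusp16.

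**Figure D3:**
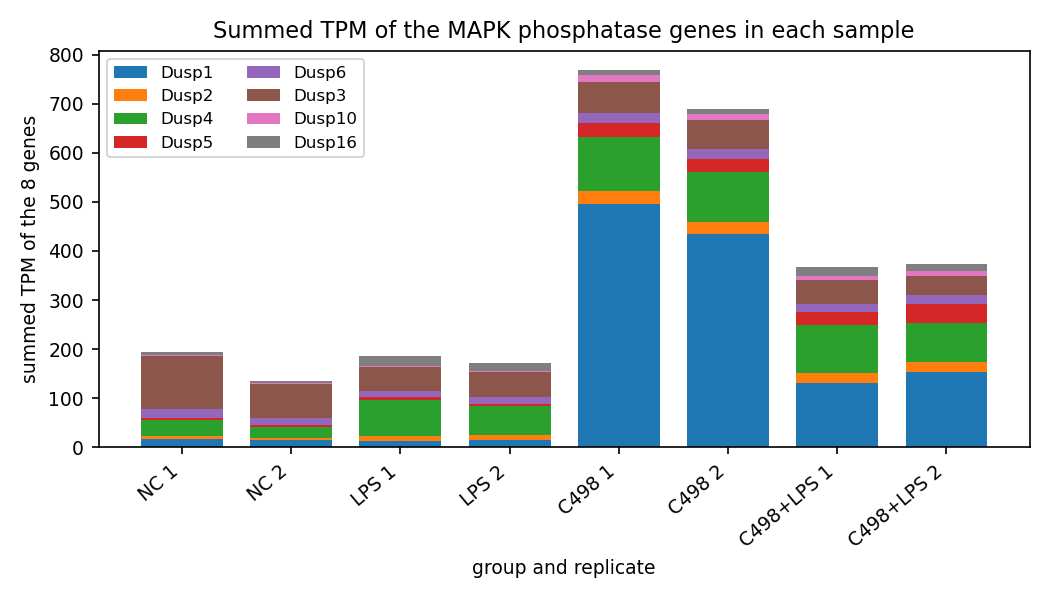
Summed TPM of the 8 genes in each sample (vertical axis, linear from 0), with 1 stacked bar per sample and 1 colour per gene. The sums are 135 to 195 TPM in the 4 samples without C498 and 366 to 769 TPM in the 4 with it, where Dusp1 is the largest part.

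Markers of other cells also differed with C498. The summed level of 6 fibroblast markers was 150 to 192 TPM in NC and 176 to 200.5 TPM with LPS, and 633 to 750.0 TPM with C498 and 618 to 911 TPM with C498+LPS. Of the 5 that were tested, 5 rose in C498 vs NC and 4 in C498+LPS vs LPS, where 5.64% and 5.39% of all tested genes rose, among them the collagen genes Col1a1, Col1a2 and Col3a1, and the sixth, Lum, stayed at 0 to 0.28 TPM. The sum of 5 mesothelial markers was 4.66 to 5.58 TPM in NC, 5 to 5.36 TPM with LPS, 14.8 to 20.9 TPM with C498 and 15.5 to 24.5 TPM with C498+LPS, with Wt1 and Krt19 higher in both comparisons. The sum of 8 macrophage markers was 20330 to 20771 TPM in NC, 17047 to 17676 TPM with LPS, 15510 to 15678 TPM with C498 and 10847 to 12658 TPM with C498+LPS. By limma 0 of 8 were called in C498 vs NC or C498+LPS vs LPS, where 1.36% and 2.18% of all tested genes fell, with 5 and 6 lower at an unadjusted p under 0.05, and 1 was called lower in C498+LPS vs LPS with centring. Some passed the p threshold and missed only the 2-fold change. These were Spi1, Fcgr1 and Lyz2 in C498 vs NC (-0.87 to -0.48, limma adjusted p 0.00398 to 0.0235). In C498+LPS vs LPS they were Spi1, Adgre1, Csf1r, Fcgr1 and Lyz2 (-0.97 to -0.64, limma adjusted p 0.00155 to 0.0186). Cd68, Itgam and Mertk passed it in neither. In C498+LPS vs NC, Csf1r (-1.59) and Fcgr1 (-1.61) fell, beside 9.06% of all tested genes, and Csf1r (-1.14) fell in C498+LPS vs C498, beside 3.13%, though 0 of 8 were called there with centring. The part of these markers in the C498 differences of the phosphatase genes was not tested, and in bulk RNA fewer cells of a type and less RNA per cell cannot be told apart. Among 9 neutrophil markers, of which 4 were tested, the sum was 188 to 228 TPM without C498 and 115 to 140 TPM with it. Most of it was S100a8 (48.9 to 128 TPM) and Mmp8 (43 to 125 TPM). Retnlg fell in C498 vs NC and in C498+LPS vs LPS, beside 1.36% and 2.18% of all tested genes. Ngp was listed at 0 in every sample, and Cxcr2 and Ltf reached 0.10 and 0.29 TPM. S100a9 and Ly6g were at 0 without C498 and reached 0.86 and 2.62 TPM with it. The sum of 3 dendritic cell markers was 0.640 to 1.38 TPM without C498 and 2.96 to 4.95 TPM with it, and Zbtb46 rose by 1.21 in C498+LPS vs LPS and by 1.26 in C498+LPS vs NC. Eosinophil markers summed to 1.46 to 2.12 TPM without C498 and 0.600 to 0.920 TPM with it. The sums of T cell, B cell, mast cell and endothelial markers were highest in C498+LPS replicate 2, at 7.89, 13.8, 22.5 and 7.16 TPM, against 3.32, 4.46, 8.57 and 2.80 TPM in replicate 1 of that group. This sample also had the highest fibroblast, mesothelial and dendritic cell sums and the lowest macrophage sum. Without it, Dusp1, Dusp5 and Dusp10 kept their calls in C498+LPS vs LPS, at 3.14, 2.11 and 2.04.

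**Figure D4:**
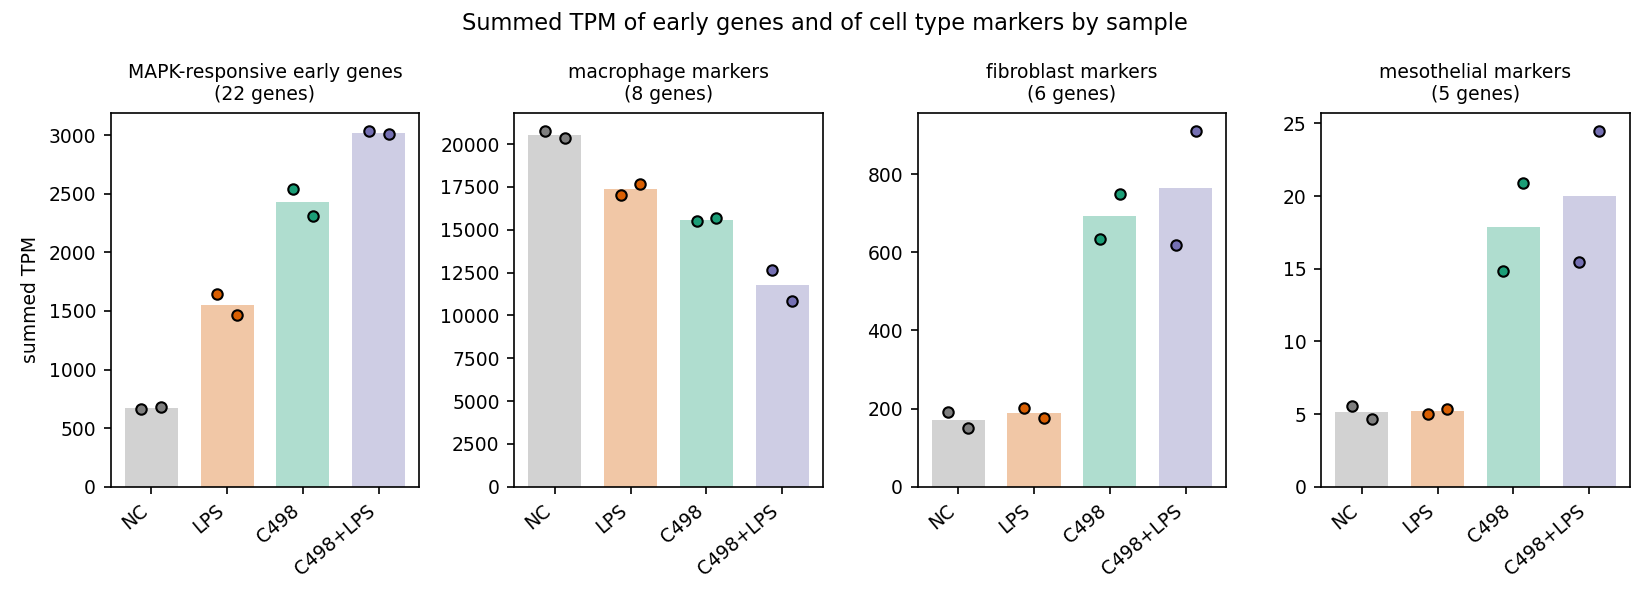
Summed TPM (vertical axes, linear from 0) of 22 MAPK-responsive early genes and of macrophage, fibroblast and mesothelial markers by group. Points are the 2 samples and bars their mean. The early gene and fibroblast sums are higher in all 4 samples given C498 than in the 4 without it, and the macrophage sums are lower.

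The early genes that MAPK signaling switches on moved in the same comparisons. Of 21 tested of 22 listed, 16 rose and 0 fell in C498 vs NC, where 5.64% of all tested genes rose and 1.36% fell, with a median change of 2.04 beside 0.014 over all tested genes. With LPS present, 14 rose and 0 fell in C498+LPS vs LPS, beside 5.39% and 2.18%, with a median of 1.54, and 12 rose with centring. The nuclear receptor gene Nr4a1 rose by 5.64 in C498 vs NC, from 0.97 and 1.27 TPM to 105 and 104 TPM. Fosb, an AP-1 subunit gene, rose by 4.71, from 0.06 and 0 TPM to 25.5 and 26.4 TPM, and Egr1, a zinc finger factor downstream of ERK, by 4.24. Nr4a2, a relative of Nr4a1, rose by 4.30. LPS vs NC gave 4 higher and 3 lower, beside 5.55% and 6.68% of all tested genes, with the prostaglandin synthase gene Ptgs2 at 6.64, Phlda1 at 2.45, Fos at -2.39 and Egr2 at -1.79, and with centring 7 were higher and 3 lower. The count in C498+LPS vs C498 was 2 higher and 5 lower, beside 2.52% and 3.13% of all tested genes, or 3 and 4 with centring.

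Of the kinase cascade itself, 40 genes were tested of 44 listed, and 2 rose and 0 fell in C498 vs NC (9 higher and 3 lower at an unadjusted p under 0.05), with a median change of 0.12. That is near the 5.64% of all tested genes that rose, and with centring 2 rose and 1 fell. The 3 lower genes, Rps6ka1 (-0.94), Mapk14 (-0.68) and Mapk3 (-0.37), passed the p threshold under a 2-fold change (limma adjusted p 0.0120 to 0.0230). Map2k3 did so as higher (0.72, limma adjusted p = 0.00735). The genes that rose were Mknk2, a kinase activated by ERK and p38 that phosphorylates the translation factor eIF4E, with a change of 1.30, and Mapk8, which encodes JNK1, with 1.14. With LPS present, Mknk2 rose by 2.53 in C498+LPS vs LPS and Map2k3, a kinase that activates p38, by 1.06, and 0 fell, while with centring only 1 of the list rose. Of all tested genes 5.39% rose there. LPS vs NC raised 3, where 5.55% of all tested genes rose and 6.68% fell, among them Mapkapk2, the p38 substrate kinase, by 1.95 and Map3k5 by 1.48, and lowered 4, among them Mknk2 (-2.47) and Map3k4 (-1.20), while centring gave 4 higher and 2 lower. Mknk2 lay at 59.0 and 60.1 TPM in NC, 10.4 and 9.49 TPM with LPS, 150 and 145 TPM with C498, and 61.7 and 63.0 TPM with C498+LPS. It was the 1 gene of this list called in the test of the LPS response with C498 against that without it, at 1.24, beside 0.0738% of all tested genes higher and 0.394% lower. At an unadjusted p under 0.05, 1 of the list was higher in that test and 7 were lower. For C498+LPS vs C498 the list had 2 higher and 2 lower, beside 2.52% and 3.13% of all tested genes, or 2 and 1 with centring.

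Of the other dual-specificity and MAPK-directed phosphatases, 18 were tested of 25 listed, and by limma 0 rose and 0 fell in C498 vs NC, beside 5.64% and 1.36% of all tested genes, with 7 higher and 4 lower at an unadjusted p under 0.05 and a median change of -0.039. Among these, Dusp19 (-0.76), Ptpn7 (-0.70) and Dusp8 (0.87) passed the p threshold under a 2-fold change (limma adjusted p 0.0337 to 0.0462). Dusp14, a small atypical phosphatase, rose by 1.69 in C498+LPS vs LPS, from a mean of 0.605 to 4.20 TPM, and Ptpn7, a tyrosine phosphatase of ERK and p38 in blood cells, fell by 1.14, beside 5.39% of all tested genes higher and 2.18% lower. In LPS vs NC the values of Dusp19, Dusp7 and Dusp13 were -1.17, -1.12 and -1.04, which passed as lower beside 6.68% of all tested genes, and 0 of the list passed as lower after centring or quantile normalization. Of the inhibitors of ERK signaling outside the family, 9 were tested of 13 listed, and 1 rose in C498 vs NC, where 5.64% of all tested genes rose: Errfi1, an inhibitor of the EGF receptor, by 1.58, from a mean of 3.91 to 13.7 TPM. The comparison C498+LPS vs LPS had 2 higher beside 5.39% of all tested genes, Errfi1 by 2.21 and Spred3 by 1.28, and 0 fell in either. Spred1 rose by 1.84 in LPS vs NC, where 5.55% of all tested genes rose and 6.68% fell, as the 1 gene of the list called there, or 2 with quantile normalization. Spred3 and Spred1 encode membrane proteins that restrain Ras and Raf.

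For each phosphatase gene, the tested genes whose levels followed it most closely over the 8 samples were found by Pearson's r on log2(TPM + 1). The 8 samples form 4 groups of 2 and are not 8 independent points, so r is given as a description without a test. Dusp1 was followed most closely by Fosb (r = 0.999), Plk3 (0.993) and Dusp10 (0.990). Fosb had means of 0.030 TPM in NC, 26.0 TPM with C498 and 7.28 TPM with C498+LPS, and was listed at 0 with LPS. The closest to Dusp2 were Brd2 (0.994), Sertad1 (0.992) and Osm (0.992), those of Dusp5 Bmp1 (0.998), Arhgap29 (0.998) and Tnfrsf10b (0.996), and those of Dusp10 Slc5a3 (0.995), Gm44389 (0.993) and Gm7008 (0.993). Gna13 (0.987), Thbs1 (0.981) and Git1 (0.979) were closest to Dusp4, and Tlk2, Rhbdf2 and Malt1 (each 0.996) to Dusp16. Malt1, a signaling protease gene, had means of 29.2 TPM in NC, 228 TPM with LPS, 80.6 TPM with C498 and 200.1 TPM with C498+LPS, the same order as Dusp16. For Dusp6 they were Gm50321 (0.987), Fpgs (0.987) and Spc25 (0.985), and for Dusp3 Prdx3 (0.985), Lactb2 (0.983) and Hdhd5 (0.983).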

How the data were processed

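RNA of peritoneal macrophages was measured in 4 groups of 2 samples. Libraries were sequenced on an Illumina NovaSeq. According to the methods and the submitters' processing notes, reads were handled with fastp, HISAT2, StringTie and RSEM, and counts, not analysed here, were tested with DESeq2. Tool versions, genome build and annotation are not given in the sources used here. The authors deposited TPM per gene and sample, with means per group (not used), gene length and annotation.

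The 12189 genes with a mean of at least 1 TPM were tested on log2(TPM + 1) with limma 3.58.1 in R 4.3.3, with 1 mean per group over all 8 samples, a variance trend, and Benjamini-Hochberg adjustment within each of 6 comparisons. Called genes changed at least 2-fold with an adjusted p up to 0.05. With 2 samples against 2, an exact two-sided permutation test cannot go below p = 0.333, so none is given. The model was tested on simulated data. Coordinates are GENCODE M21, which held 97.4% of the tested identifiers. Promoters are RefSeq's on GRCm38.p6, matched by symbol for 7 of 8 genes, all but Dusp4. Protein sequences were not used here. The genes and lists were chosen with earlier results of these data known. Named genes are the 8, the 3 most alike to each, and up to 4 called genes per list and comparison with the largest change. Marker genes are named from their lists. Ngp, Lum, the collagen genes, list genes without a call and the genes that overlap a member were named after their values were seen.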

Additional observations from a re-analysis of the deposited data

Results flagged for a closer look

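The response of Dusp1 to LPS passed a test of its difference between cells with and without C498, a call that was lost in 10 of 15 alternatives. The change in C498+LPS vs C498 was -1.71 and that in LPS vs NC -0.16, and their difference was -1.54 (SE 0.198, limma adjusted p = 0.0310). Both C498+LPS samples, at 131 and 153 TPM, were below both C498 samples, at 496 and 435 TPM, while NC and LPS samples overlapped at 12.8 to 17.0 TPM. The call was lost with median centring, with no filter on low values, with no variance trend, and without any sample but NC replicate 1. Over the 15 alternatives the value ranged from -1.68 to -1.42 and the limma adjusted p from 0.0208 to 0.198.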

How the results depend on the processing

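The 5 calls in C498 vs NC, the 3 in C498+LPS vs LPS and that of Dusp1 in C498+LPS vs C498 held under each alternative: a pseudocount of 0.1, no filter or a minimum mean of 5 TPM, median centring, quantile normalization, the groups compared alone, no variance trend, a replicate block and leaving out each sample. In LPS vs NC the count of called genes was 2, but 1 with only the groups compared, 3 with quantile normalization (Dusp2 added), 4 without a fold threshold, and 1 to 2 with a sample left out. Without NC replicate 2 the 2 called were Dusp16 and, as lower, Dusp3, with Dusp4 lost. For the LPS response with C498 against that without it, the count of 1 became 0 with no filter or no variance trend, 2 with the replicate block, and 0 to 1 with a sample left out. With median centring it remained 1, but the gene called was Dusp4 in place of Dusp1. Values near 0 changed sign: Dusp1 in LPS vs NC with centring (0.0059), Dusp5 in C498+LPS vs C498 without C498+LPS replicate 2 (-0.027, and up to 0.54 with another sample left out), Dusp6 in C498+LPS vs NC without NC replicate 2 (-0.061) or C498+LPS replicate 2 (-0.016, and up to 0.19), and in the difference of LPS responses Dusp5 without C498+LPS replicate 1 (0.079, and down to -0.49) and Dusp3 without NC replicate 1 (-0.045, and up to 0.60). The cause of these changes was not tested. Where 1 sample is left out, the lone sample of its group is assumed to vary like the others. Of the values of single genes under all alternatives, 731 kept their direction and their side of the threshold, 18 lost a call, 5 gained one and 6 changed sign. Whether same-numbered samples share more than a number is not given in the sources used here. Their deviations correlated at 0.102 to 0.168 between NC and the other groups and at 0.040 to 0.042 among the others. The replicate block changed no other call of the 8 genes. The depth behind the TPM values is unknown, so counting noise is seen only through 2 samples a group.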
